A study of Mus musculus with 8 samples.

Results

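The 35 genes described here encode proteins that carry pyruvate into mitochondria, convert it to acetyl-CoA, run the citric acid cycle, move malate and aspartate between compartments and refill the cycle. They were listed by symbol for their known roles, with earlier results of these data known. Each symbol matched 1 of the 22880 Ensembl gene identifiers in the count files, and all 35 passed the filter on low counts that left 14001 tested genes. The RNA came from the soleus, a calf muscle that holds posture and contains both slow and fast fibres, of 4 control mice (Dnm2 +/+) and 4 Dnm2 +/K562E mice. All 8 mice were 2-month-old males on a C57BL/6 background (C57BL/6J in the study's methods) and were independent animals per the study's methods. Dnm2 +/K562E mice carry, from the germline on and in every cell type, 1 allele of dynamin 2, a membrane-cutting GTPase, with a point mutation, so effects arising in muscle and in nerve or other tissues cannot be told apart. The authors deposited unnormalized read counts per gene. Levels are given here as normalized CPM, which are counts scaled to a common library size with TMM factors.

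Pyruvate from glycolysis crosses the inner mitochondrial membrane through the MPC1 and MPC2 carrier and is turned into acetyl-CoA by the pyruvate dehydrogenase complex. Kinases switch this complex off by phosphorylation of its E1 alpha subunit, and phosphatases switch it back on. Citrate synthase then joins acetyl-CoA with oxaloacetate, and the cycle oxidizes the product to yield NADH and, at succinate dehydrogenase, reduced flavin for the respiratory chain. Reactions that feed carbon into the cycle other than through acetyl-CoA are called anaplerotic. Oxidative fibres, which are common in the soleus, are rich in mitochondria.

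Total counts ran from 33407430 to 48832814 per mouse, and TMM factors spanned 0.9145 to 0.9594 for controls and 1.0367 to 1.1031 for Dnm2 +/K562E mice. The skeletal muscle markers Ckm, Acta1 and Des and the slow fibre markers were abundant in all 8 libraries, with no marker at 0, so the labelled tissue was borne out by its markers. Their sums differed between genotypes. The 3 muscle markers summed to 33100 to 40500 normalized CPM in controls and 24100 to 28000 in Dnm2 +/K562E mice, with Ckm and Acta1 lower and Des higher, and the 5 slow fibre markers to 13300 to 15400 and 7290 to 9530, with 4 of 5 lower at an adjusted p under 0.05. The 5 macrophage markers ran the other way, with sums of 61.8 to 114 against 131 to 220 in Dnm2 +/K562E mice, as did the 4 fibroblast markers, with 1760 to 2670 against 3730 to 4850, and the 3 tendon markers, with 70.1 to 111 against 200 to 251. All of these markers were higher past both thresholds. Of the fast fibre markers 3 of 4 were lower (sums of 17000 to 19000 against 11100 to 13600), as were 3 of 3 endothelial markers (728 to 766 against 525 to 594) and 1 of 3 Schwann cell markers (151 to 170 against 125 to 156), by adjusted p. In whole muscle, fewer cells of a type and less RNA per cell cannot be told apart, and the part of the changed markers in the results below was not tested. The fast myosin gene Myh4 stood at 3134 normalized CPM in control 4 and between 162.8 and 426.4 in the other controls. Total Dnm2 was 66.32 ± 4.74 in controls and 73.42 ± 2.43 in Dnm2 +/K562E mice (SD, n = 4 each, log2 fold change 0.15, adjusted p = 0.0909, edgeR quasi-likelihood test). The mutation changes the sequence of 1 allele, so this total does not check the genotype labels.

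Most of the 35 genes were lower in Dnm2 +/K562E soleus. A gene was called when its adjusted p was under 0.05 and its log2 fold change at least 0.58 in either direction, which is about 1.5-fold. With both thresholds 20 members were lower, or 57.1%, against 7.85% of all tested genes, and 2 were higher, or 5.71%, against 12.9%. With the adjusted p alone, 27 members (77.1%, against 21.7%) were lower and 2 were higher (5.71%, against 22.2%). Of the 27, the level of every Dnm2 +/K562E mouse lay below every control in 26 genes, and Pcx was the exception, while both genes that rose lay above every control. Of all tested genes 41.2% did not overlap between genotypes, 20.5% lower and 20.6% higher. The 6 genes that did not pass were Pdk1, Pdk4, Pdp1, Idh1, Aco1 and Me1. The 2 that rose were Pdk3 and Me2, both at low levels. The median log2 fold change was -0.66 over the 35 genes and 0.01 over all tested genes. Under scaling by library size alone the median became 0.22 over all genes and -0.45 over the members, so that the members stood as far below the other genes as before. The number of members past both thresholds on the lower side then fell to 11, while 25 stayed lower at an adjusted p under 0.05.

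**Figure D1:**
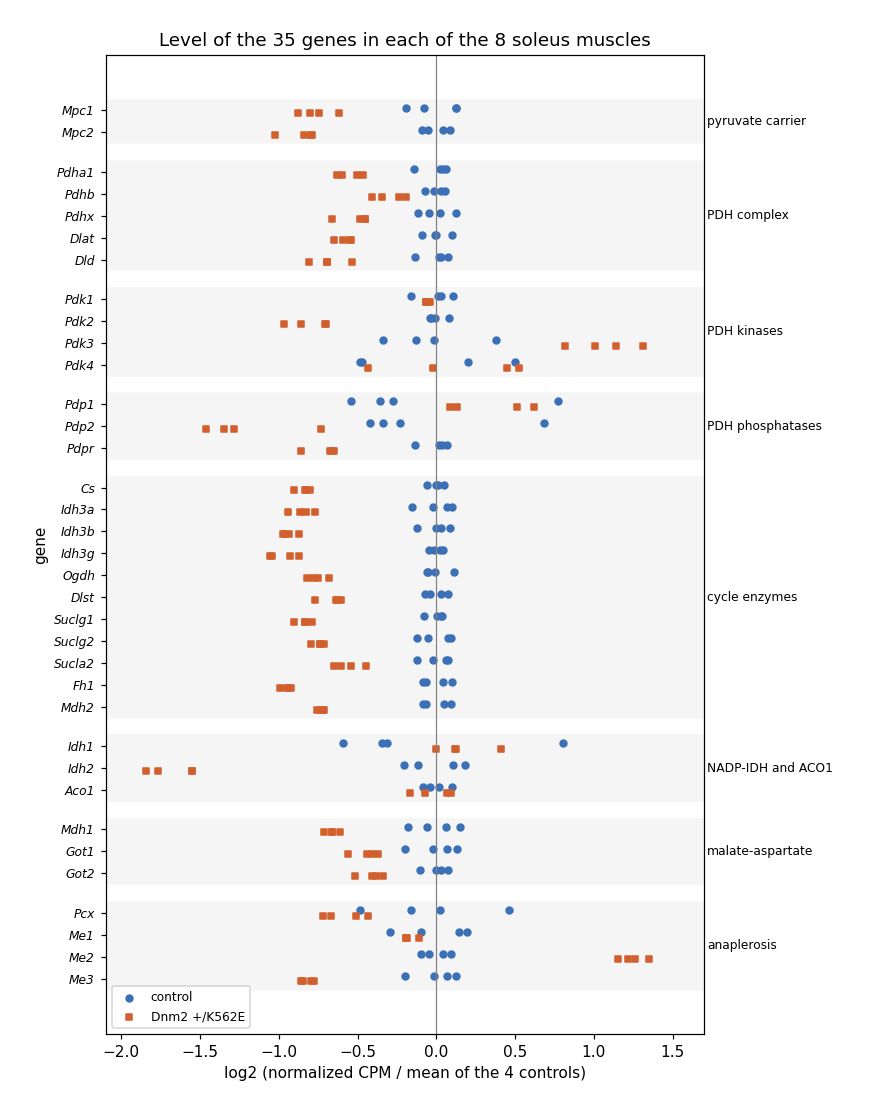
Level of each of the 35 genes (rows, grouped by role) in each mouse, as the log2 ratio of its normalized CPM to the mean of the 4 controls (horizontal axis). Circles are controls and squares Dnm2 +/K562E mice. The squares of the 11 cycle enzymes lie left of all their circles, whereas those of Pdk3 and Me2 lie to the right, and the circles of Pdk4, Pdp1, Idh1 and Pcx are spread widely.

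Both subunits of the mitochondrial pyruvate carrier fell. Mpc1 (chromosome 17, 8282904 to 8297661, GRCm38) stood at 290.0, 333.7, 334.0 and 267.9 normalized CPM in controls 1 to 4 and at 166.4, 175.8, 183.2 and 199.9 in Dnm2 +/K562E mice 1 to 4. Mpc2 (chromosome 1, 165460637 to 165481214) stood at 188.4, 213.7, 207.1 and 193.9 and at 98.8, 112.3, 115.7 and 116.0. The highest mutant level was below the lowest control level for both. Mpc1 went from 306.4 ± 32.9 to 181.3 ± 14.2 (SD, n = 4 each), a log2 fold change of -0.76 (SE 0.09, that is, the standard error implied by the test, and adjusted p = 5.54e-05 by edgeR's quasi-likelihood test with Benjamini-Hochberg adjustment over all tested genes). Mpc2 went from 200.8 ± 11.7 to 110.7 ± 8.12, a log2 fold change of -0.86 (SE 0.07, adjusted p = 5.43e-06, same test). The carrier works as a heterodimer, and the ratio of its transcripts within a mouse, which does not depend on the scaling of the library, differed little between genotypes (log2 ratio 0.61 ± 0.0968 and 0.71 ± 0.0675, exact permutation test, two-sided p = 0.143). Mpc1 shares 30.8% of the 31-base stretches of its transcripts with other genes, 18.2% with 4930506C21Rik, so some reads could match either gene.

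The 5 genes of the pyruvate dehydrogenase complex all fell, by less than the carrier subunits in log2 terms, though this contrast between the groups was not tested. Pdha1, the E1 alpha subunit that the kinases phosphorylate, stood at 1033, 1043, 1061 and 920.9 in controls 1 to 4 and at 716.5, 655.3, 668.9 and 735.4 in Dnm2 +/K562E mice 1 to 4. Pdhb, its E1 beta partner, stood at 323.0, 333.7, 339.3 and 310.2 and at 246.3, 257.3, 285.5 and 277.1. Neither gene overlapped between genotypes, and neither reached the fold threshold. Pdha1 fell by 31.6% (log2 fold change -0.55, SE 0.07, adjusted p = 9.75e-05) and Pdhb by a smaller amount, at a log2 fold change of -0.29 (SE 0.06, adjusted p = 0.00359). The fall of Pdhb was the one most open to scaling among these 5, since library size alone gave -0.08 with an adjusted p of 0.215. The log2 ratio of Pdha1 to Pdhb went from 1.63 ± 0.0456 to 1.38 ± 0.13 (SD, n = 4 each), with no overlap between genotypes (difference -0.25, exact two-sided p = 0.0286, adjusted p = 0.0657 over 23 pairs). Of these genes' 31-base stretches, 15.8% are shared in Pdha1 and 17.9% in Pdhb, and 603 bases of Pdha1 exons overlap Map3k15 on the opposite strand.

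Dlat, the E2 acetyltransferase core, fell from 209.4 ± 11.3 to 140.0 ± 4.64 normalized CPM (log2 fold change -0.58, adjusted p = 2.22e-05), just inside the fold threshold. Pdhx, the protein that binds E3 to this core, fell from 103.9 ± 7.42 to 72.95 ± 4.96 (log2 fold change -0.51, adjusted p = 0.000224). Dld, the E3 dihydrolipoyl dehydrogenase that also serves the 2-oxoglutarate dehydrogenase complex, fell from 393.8 ± 24.3 to 246.0 ± 19.5 (log2 fold change -0.68, adjusted p = 3.49e-05; SD, n = 4 in each of these values). The log2 ratios of Pdhx to Dlat, of Dld to Dlat and of Dld to Dlst each overlapped between genotypes, with differences of 0.07, -0.10 and -0.02. Their SDs within a genotype were 0.0367 to 0.102.

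**Figure D2:**
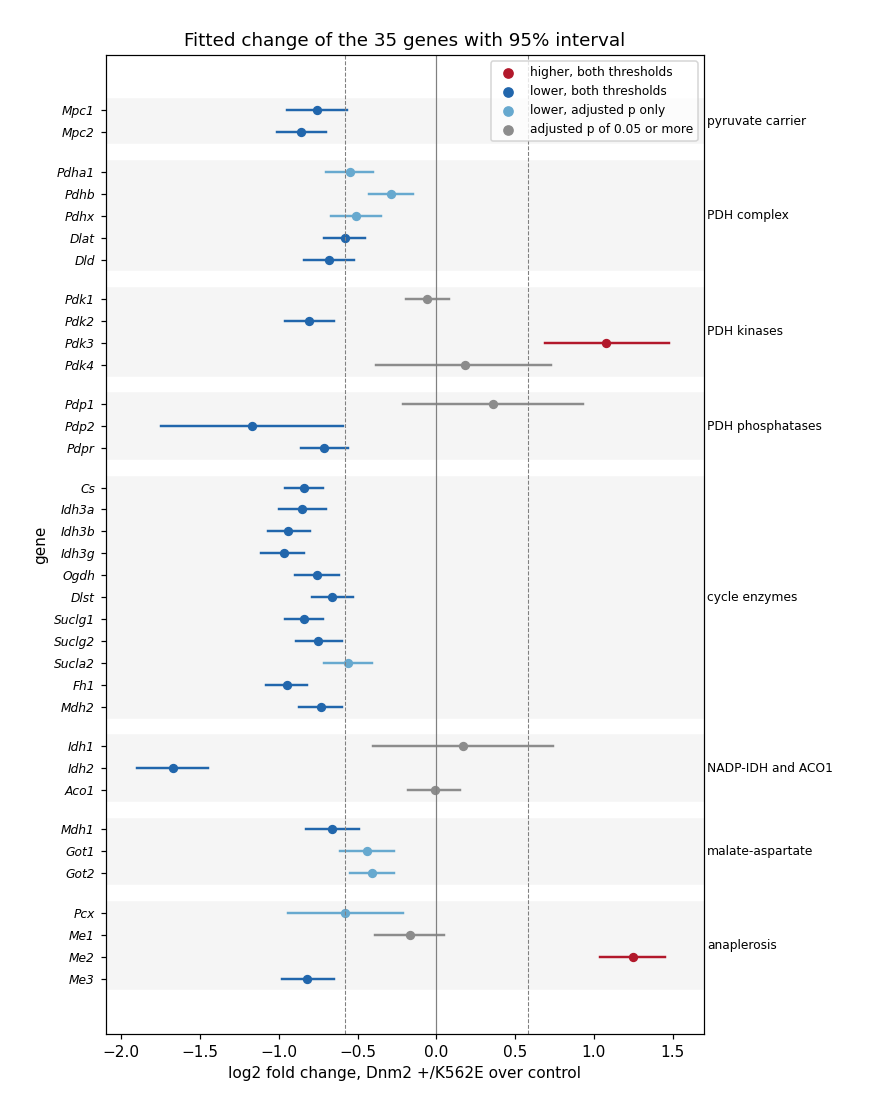
Fitted log2 fold change of Dnm2 +/K562E over control (horizontal axis) with its 95% interval for each of the 35 genes, by role. Dark blue marks genes lower past both thresholds, light blue lower by adjusted p alone, red higher past both and grey an adjusted p of 0.05 or more, with dashed lines at the fold threshold of 0.58. The intervals of Pdp2, Pdp1, Pdk4 and Idh1 are the widest, and Idh2 at -1.67 lies farthest from 0.

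The 4 pyruvate dehydrogenase kinases did not move together. Pdk2, the kinase with the second-highest level per kilobase in this muscle, fell. Pdk3 rose, and Pdk1 and Pdk4 did not pass the test. Pdk2 (chromosome 11, 95026258 to 95041354) stood at 415.7, 451.6, 425.0 and 417.2 normalized CPM in controls 1 to 4 and at 218.5, 261.3, 263.3 and 235.1 in Dnm2 +/K562E mice 1 to 4. Pdk3 (chromosome X, 93764607 to 93832201) stood at 2.80, 2.584, 2.24 and 3.68 and at 5.676, 7.019, 6.225 and 4.973, from 87 to 302 raw counts per library. For both genes the genotypes did not overlap. The log2 fold change was -0.81 for Pdk2 (SE 0.07, adjusted p = 1e-05) and 1.08 for Pdk3 (SE 0.18, 95% interval 0.69 to 1.48, adjusted p = 0.000646), both by edgeR's quasi-likelihood test. The log2 ratio of Pdk3 to Pdk2 went from -7.24 ± 0.322 to -5.35 ± 0.153 (SD, n = 4 each), a difference of 1.89 without overlap. The exact two-sided p was 0.0286, the smallest that 4 against 4 mice allow, and the adjusted p was 0.0657 over the 23 pairs compared, 10 of which had this smallest p.

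Because these 2 kinase genes moved in opposite directions, bases upstream of their starts are shown, from RefSeq (GRCm38.p6, minus strand for both), with every CG dinucleotide in capitals. The stretch of Pdk2 is chr11:95041372-95041471, from 100 bases to 1 base before its start, and that of Pdk3 is chrX:93832202-93832301, from 151 to 52 bases before its start. These distances, and those for Idh1 and Idh2, are counted from the start in RefSeq, which differs from the end of each gene's span in GENCODE given in the text.
Pdk2: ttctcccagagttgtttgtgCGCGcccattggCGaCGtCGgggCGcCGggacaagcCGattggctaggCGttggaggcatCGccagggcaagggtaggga
Pdk3: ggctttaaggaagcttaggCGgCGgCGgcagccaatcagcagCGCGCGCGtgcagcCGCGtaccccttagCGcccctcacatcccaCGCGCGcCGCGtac
These stretches hold 10 and 15 CG dinucleotides, and the whole windows of 300 bases (250 before to 50 after the start) hold 25 and 35. Over the 32 members with a window in this table the median was 22, and over 27025 genes it was 7. Both kinase genes therefore start in CG-rich sequence, as most of the 32 members do. Marking CG was chosen after the expression values had been seen.

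Pdk4, the kinase known to rise with fasting and fatty acid use, was the most abundant kinase and varied most within a genotype. It stood at 2194, 1108, 1785 and 1117 normalized CPM in controls 1 to 4 and at 1150, 2231, 2116 and 1531 in Dnm2 +/K562E mice 1 to 4. In each genotype the highest mouse had nearly double the level of the lowest. The log2 fold change was 0.18 with a 95% interval of -0.38 to 0.73 (adjusted p = 0.593), and the -0.81 of Pdk2 lies outside this interval. Compared directly, the log2 ratio of Pdk4 to Pdk2 within a mouse overlapped between genotypes (difference 1.0, exact two-sided permutation p = 0.0571, adjusted p = 0.11). Pdk1 was nearly level, at 141.3 ± 10.8 in controls and 135.9 ± 1.12 in Dnm2 +/K562E mice, for a log2 fold change of -0.06 (95% interval -0.19 to 0.08, adjusted p = 0.501), which turned to 0.16 (adjusted p = 0.0409) when scaled by library size alone. Within each mouse the log2 ratio of Pdk1 to Pdk2 went from -1.60 ± 0.116 to -0.84 ± 0.13, without overlap.

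Levels of different genes can be compared per kilobase of exon. On this scale the 4 kinase genes had a mean sum of 596 normalized CPM per kilobase in controls and 598 in Dnm2 +/K562E mice. The largest part of the sum was Pdk4, which was spread widely within each genotype, so the near-equal means say little of single mice. Pdk4 made up 72.8% ± 6.9 of this sum in controls and 83.1% ± 3.38 in Dnm2 +/K562E mice (SD, n = 4 each), and Pdk2 made up 23.8% ± 6.21 and 13.4% ± 2.46. Pdk1 held 3.16% and 3.08%, and Pdk3 held 0.198% and 0.404%. By the length of the longest transcript, Pdk4 held 65.7% and 77.8%, with the same order of the 4 genes, and the mean sums were 664 and 642. Between the genotypes, the mean of Pdk4 per kilobase of exon went from 442 to 500 and that of Pdk2 from 135 to 77.3. Pdk4 did not pass its test.

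**Figure D3:**
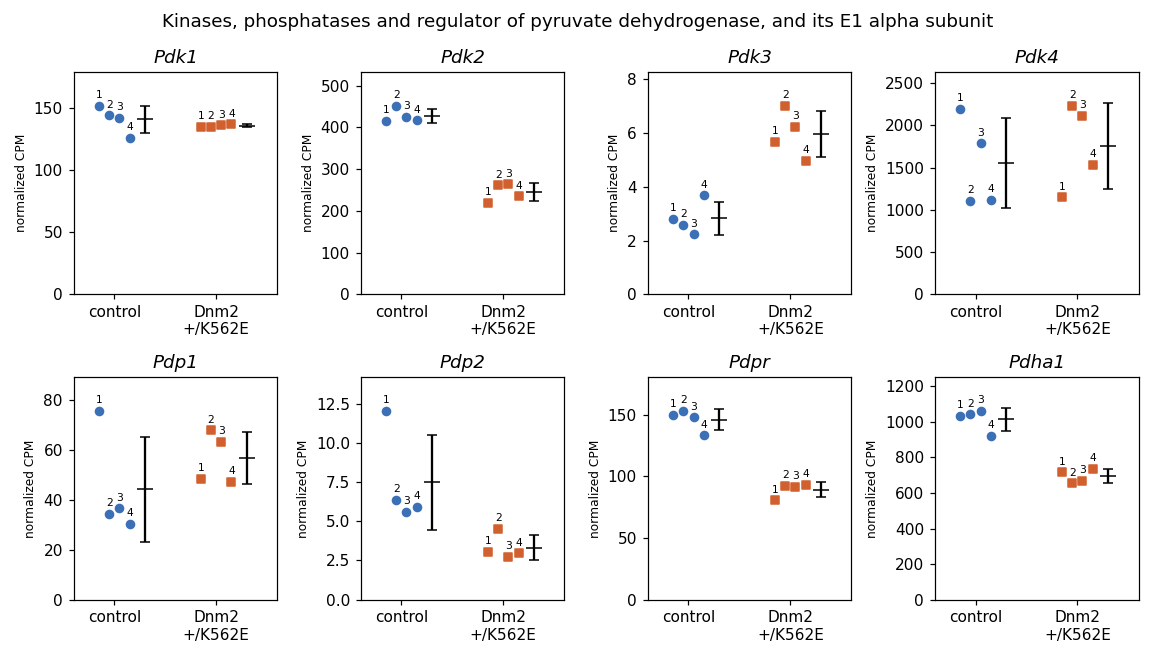
Normalized CPM of the 4 kinases, 2 phosphatases, their regulator Pdpr and the E1 alpha gene Pdha1 in each mouse, numbered 1 to 4, with the mean and SD of each genotype beside the points (vertical axes start at 0). Control 1 lies far above the other controls in Pdp1 and Pdp2, and both genotypes are spread from near 1108 to above 2116 in Pdk4.

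Of the genes that reactivate the complex, the phosphatase Pdp2 and the regulatory subunit Pdpr fell, and the phosphatase Pdp1 did not pass the test. Pdp2 (chromosome 8, 104591451 to 104599026) stood at 12.04, 6.385, 5.599 and 5.918 in controls 1 to 4 and at 3.069, 4.509, 2.719 and 2.946 in Dnm2 +/K562E mice 1 to 4, on 109 to 404 raw counts. Control 1 was about double the other controls, and the genotypes did not overlap. The log2 fold change was -1.17 (SE 0.26, 95% interval -1.75 to -0.59, adjusted p = 0.00436), and without control 1 it was -0.85 (adjusted p = 0.00331). Pdpr stood at 149.9, 152.9, 147.9 and 133.2 and at 80.36, 92.23, 91.37 and 93.05, with a log2 fold change of -0.71 (SE 0.07, adjusted p = 1.76e-05).

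Pdp1 (chromosome 4, 11958184 to 11966452) stood at 75.73, 34.57, 36.66 and 30.41 normalized CPM in controls 1 to 4 and at 48.58, 68.05, 63.37 and 47.19 in Dnm2 +/K562E mice 1 to 4. The 4 Dnm2 +/K562E mice lay above controls 2 to 4 and below control 1. With all mice the log2 fold change was 0.36 (95% interval -0.21 to 0.93, adjusted p = 0.285), and without control 1 it was 0.74 with an adjusted p of 0.00108, so 1 library decided this call. The log2 ratio of Pdp2 to Pdp1 was less exposed to control 1, in which both genes were high. It was -2.65, -2.43, -2.70 and -2.35 in controls 1 to 4 and -3.96, -3.90, -4.52 and -3.98 in Dnm2 +/K562E mice 1 to 4. The difference of -1.56 was several times the spread within either genotype (SD 0.169 and 0.287, exact two-sided permutation p = 0.0286, adjusted p = 0.0657). Per kilobase, Pdp1 made up 88.0% ± 1.23 of the 2 phosphatases in controls and 95.6% ± 0.776 in Dnm2 +/K562E mice, where Pdp2 was left with 4.44%.

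The 11 cycle enzymes all moved the same way. They fell at an adjusted p under 0.05, 10 of them past both thresholds, by log2 fold changes between -0.97 and -0.56 whose median was -0.84. The transcript of citrate synthase, the entry step, stood at 1003, 1028, 994.7 and 952.7 normalized CPM in controls 1 to 4 and at 532.5, 556.9, 569.3 and 561.4 in Dnm2 +/K562E mice 1 to 4 (Cs, chromosome 10, 128337734 to 128362479). Its lowest control was far above its highest mutant. The mean went from 994.6 ± 31.4 to 555.0 ± 15.9 (SD, n = 4 each), a log2 fold change of -0.84 (SE 0.06, adjusted p = 1.64e-06, edgeR quasi-likelihood test).

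The 3 subunits of the NAD-dependent isocitrate dehydrogenase, a regulated step of the cycle, fell by similar amounts. The catalytic subunit Idh3a went from 485.7 ± 37.3 to 269.6 ± 13.3 (log2 fold change -0.85), Idh3b from 635.8 ± 38.0 to 332.5 ± 11.0 (-0.94) and Idh3g from 409.9 ± 11.4 to 208.9 ± 13.1 (-0.97), with adjusted p of 5.89e-06, 1.64e-06 and 1.29e-06. Their ratios overlapped between genotypes, with differences of -0.09 for Idh3b to Idh3a (exact permutation p = 0.2) and -0.13 for Idh3g to Idh3a (exact permutation p = 0.0571). The 2-oxoglutarate dehydrogenase complex, the next step, showed a log2 fold change of -0.76 in its E1 gene Ogdh (1140 ± 63.6 to 673.7 ± 27.1, adjusted p = 6.12e-06) and -0.66 in its E2 gene Dlst (369.2 ± 16.5 to 233.9 ± 11.7, adjusted p = 1.26e-05).

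Succinyl-CoA ligase joins a common alpha subunit, Suclg1, to a GTP-forming beta subunit, Suclg2, or an ATP-forming one, Sucla2. Suclg1 fell from 251.8 ± 9.0 to 140.7 ± 4.42 (log2 fold change -0.84, adjusted p = 1.4e-06) and Suclg2 from 87.15 ± 6.27 to 51.98 ± 1.30 (-0.75, adjusted p = 8.26e-06). Sucla2 fell from 465.6 ± 29.2 to 316.0 ± 19.4 (-0.56, adjusted p = 8.54e-05) and was the cycle enzyme that missed the fold threshold. Within a mouse, Sucla2 stood to Suclg2 at a log2 ratio of 2.45, 2.40, 2.40 and 2.42 in controls 1 to 4 and 2.61, 2.5, 2.59 and 2.71 in Dnm2 +/K562E mice 1 to 4. The ratio was thus higher in every mutant by a small amount (difference 0.18, exact two-sided permutation p = 0.0286, adjusted p = 0.0657). Per kilobase, Sucla2 made up 86.1% ± 0.197 of the 2 beta subunits in controls and 87.6% ± 0.628 in Dnm2 +/K562E mice. Suclg2 shares 20.1% of its 31-base stretches with Gm15163.

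Fumarase, Fh1, stood at 278.7, 313.7, 300.9 and 275.5 in controls 1 to 4 and at 146.8, 152.6, 154.1 and 151.7 in Dnm2 +/K562E mice 1 to 4. The 4 mutant levels were within 8 normalized CPM of each other (SD 3.16). The log2 fold change was -0.95 (SE 0.06, adjusted p = 1.29e-06). Mitochondrial malate dehydrogenase, Mdh2, closed the cycle at a log2 fold change of -0.73, from 971.3 ± 57.2 to 584.4 ± 7.68 (adjusted p = 5.8e-06). The log2 ratio of Cs to Mdh2, the first and last enzymes of the cycle, differed by -0.11 between genotypes without overlap (exact two-sided permutation p = 0.0286, adjusted p = 0.0657).

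The largest fall among the 35 genes was that of Idh2, the mitochondrial NADP-dependent isocitrate dehydrogenase, which makes NADPH in the matrix. Idh2 (chromosome 7, 80094846 to 80115392) stood at 975.2, 1197, 1137 and 918.5 normalized CPM in controls 1 to 4 and at 295.1, 360.6, 360.4 and 310.5 in Dnm2 +/K562E mice 1 to 4. Every mutant was below every control by a wide margin. It fell by 68.6% (log2 fold change -1.67, SE 0.10, 95% interval -1.90 to -1.45, adjusted p = 1.2e-06). This interval lies below the point estimates of all the cycle enzymes, of which Idh3g at -0.97 was the lowest, though the difference from any 1 of them was not tested.

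Its cytosolic counterpart Idh1 (chromosome 1, 65158616 to 65186500) stood at 71.35, 32.13, 27.12 and 32.91 in controls 1 to 4 and at 44.59, 54.34, 44.48 and 40.78 in Dnm2 +/K562E mice 1 to 4. As for Pdp1, control 1 was the highest of all 8 and the 4 mutants lay above the other 3 controls. The log2 fold change was 0.17 (95% interval -0.40 to 0.74, adjusted p = 0.615) with all mice and 0.58 (adjusted p = 0.00108) without control 1. Idh1 stood to Idh2 at a log2 ratio of -3.77, -5.22, -5.39 and -4.80 in controls 1 to 4 and -2.73, -2.73, -3.02 and -2.93 in Dnm2 +/K562E mice 1 to 4. The ratio did not overlap even with control 1 included (difference 1.94, exact two-sided permutation p = 0.0286, adjusted p = 0.0657). Per kilobase, Idh1 made up 3.57% ± 1.94 of the 2 genes in controls and 11.5% ± 1.02 in Dnm2 +/K562E mice, while their sum went from 423 to 145 normalized CPM per kilobase.

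Stretches upstream of these 2 genes are shown because the pair had the second-largest shift in ratio. Both are from RefSeq (GRCm38.p6) on the minus strand, with CG in capitals. That of Idh2 is chr7:80115393-80115492, from 142 to 43 bases before its start, and that of Idh1 is chr1:65186501-65186600, from 121 to 22 bases before its start.
Idh2: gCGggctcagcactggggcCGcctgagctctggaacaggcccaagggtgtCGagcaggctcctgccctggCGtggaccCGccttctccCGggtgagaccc
Idh1: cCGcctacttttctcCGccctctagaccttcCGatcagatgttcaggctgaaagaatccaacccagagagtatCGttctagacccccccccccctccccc
The stretches hold 6 and 4 CG dinucleotides, and the whole windows 20 and 23, close to the median of 22 over the members.

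Elements of factors known to act on oxidative genes were searched on both strands of the 300-base windows of the 32 members found in the table (Me2, Idh3a and Pdp1 were not). The estrogen-related receptor element TCAAGGTCA and its looser form TNAAGGTCA, which contains it, matched 0 members, and 0.466% and 1.43% of 27025 genes. The DR1 element, a direct repeat bound by PPAR-RXR dimers, matched 0 members and 0.0481% of genes. The NRF1 element matched Dld (as GCGCAGGCGC) and Sucla2 (as GCGCCTGCGC on the reverse strand), or 6.25% of the 32 members, against 5.19% of genes. The ETS core ACTTCCGG, read by GABP among others, matched Dlst, or 3.12%, against 4.31%. A match is only a string of letters near the start, and a window without one says nothing of elements elsewhere.

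Cytosolic aconitase, Aco1, which doubles as an iron-sensing RNA-binding protein, was at 29.74 ± 1.67 in controls and 29.44 ± 2.44 in Dnm2 +/K562E mice. Its log2 fold change was -0.01, with a 95% interval of -0.18 to 0.15 (adjusted p = 0.896), and its sign was positive under library size alone (0.20). Changes the size of those in the cycle enzymes lie outside this interval.

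The malate-aspartate shuttle, which carries reducing equivalents of cytosolic NADH into mitochondria, fell in all 3 enzymes listed. Mdh1, the cytosolic malate dehydrogenase, went from 1571 ± 156 to 992.7 ± 28.4 normalized CPM (log2 fold change -0.66, adjusted p = 5.92e-05). The aspartate aminotransferases fell less and below the fold threshold, the cytosolic Got1 from 479.3 ± 46.4 to 353.0 ± 19.8 (-0.44, adjusted p = 0.00102) and the mitochondrial Got2 from 706.5 ± 35.9 to 532.3 ± 27.8 (-0.41, adjusted p = 0.000425; SD, n = 4 each). Cytosolic and mitochondrial partners kept close ratios. Between genotypes, Mdh1 to Mdh2 differed on the log2 scale by 0.07 (exact permutation p = 0.229) and that of Got1 to Got2 by -0.03 (exact permutation p = 0.714). Got1 held 56.2% of the pair per kilobase of exon in controls, and 45.4% by the longest transcript, so the order of these 2 depends on the gene length used. Other genes hold 30.9% of the 31-base stretches of Got2, and Gm10874 holds 23.8%.

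**Figure D4:**
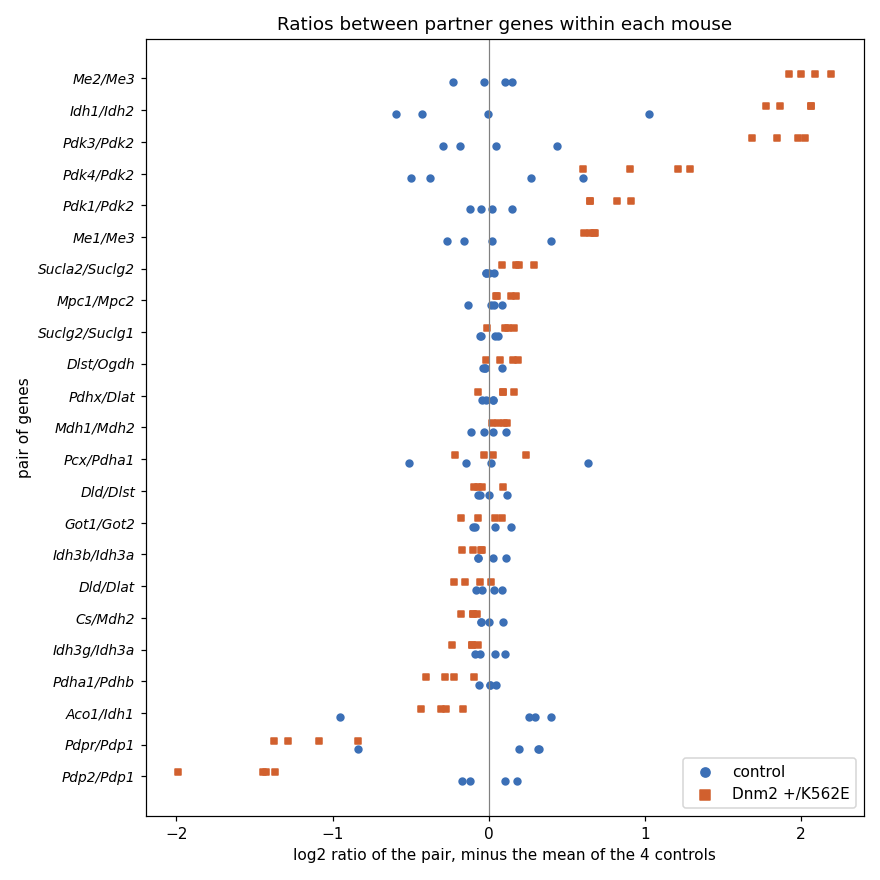
Log2 ratio between partner genes in each mouse, minus the mean of the 4 controls (horizontal axis), for the 23 pairs, ordered by the genotype difference. Circles are controls and squares Dnm2 +/K562E mice. Me2/Me3, Idh1/Idh2 and Pdk3/Pdk2 shift right by about 2 units and Pdp2/Pdp1 and Pdpr/Pdp1 left by over 1, whereas subunits of one enzyme shift by 0.25 or less.

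Of the 23 pairs, 10 did not overlap between genotypes, 6 higher and 4 lower in Dnm2 +/K562E mice. Of all tested genes taken singly, 41.2% did not overlap. No share over other gene pairs was computed, so the count alone does not set these pairs apart. Those with a difference over 0.5 in size all paired isoforms or a phosphatase with its regulator, namely Me2/Me3, Idh1/Idh2, Pdk3/Pdk2, Pdk1/Pdk2, Me1/Me3, Pdp2/Pdp1 and Pdpr/Pdp1. For Pdpr/Pdp1 the gap was very narrow, since control 1 and Dnm2 +/K562E mouse 4 both rounded to a log2 ratio of 0.98. Controls 2 to 4 stood between 2.01 and 2.14. Pdk4/Pdk2 differed by 1.0 with overlap (exact two-sided permutation p = 0.0571, adjusted p = 0.11). None of the 23 passed an adjusted p of 0.05, since 10 pairs at the smallest possible p give 0.0657 each.

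The 4 genes listed under anaplerosis moved apart. The 3 malic enzymes among them turn malate into pyruvate, a direction that takes carbon out of the cycle. Me1 does so in the cytosol and Me2 and Me3 in mitochondria. Me2 stood at 5.243, 4.752, 5.42 and 4.917 normalized CPM in controls 1 to 4 and at 12.19, 11.81, 11.31 and 12.97 in Dnm2 +/K562E mice 1 to 4, on 160 to 508 raw counts. Me3 (chromosome 7, 89632392 to 89854359) stood at 61.97, 64.53, 58.34 and 51.40 and at 32.91, 33.98, 34.47 and 32.62. Neither overlapped between genotypes, and within a genotype the levels were tight. Me2 rose 2.37-fold (log2 fold change 1.25, SE 0.09, 95% interval 1.04 to 1.45, adjusted p = 3.62e-06), and Me3 fell by 43.3% (log2 fold change -0.82, SE 0.08, adjusted p = 1.31e-05). Their log2 ratio went from -3.52 ± 0.169 to -1.47 ± 0.119 (SD, n = 4 each), the largest difference of the 23 pairs at 2.05 (exact two-sided permutation p = 0.0286, adjusted p = 0.0657). Macrophage and fibroblast marker sums, given above, were also higher in every Dnm2 +/K562E mouse, and their part in the rise of Me2 and Pdk3 was not tested.

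Me1 stood at 68.91, 81.19, 59.89 and 84.20 in controls 1 to 4 and at 64.25, 64.36, 68.12 and 64.75 in Dnm2 +/K562E mice 1 to 4. The mutants lay within the range of the controls. Its log2 fold change was -0.17 (95% interval -0.39 to 0.05, adjusted p = 0.187), and 0.04 under library size alone. Without control 3, the lowest control, it was -0.26 with an adjusted p of 0.0276. Of the 3 malic enzymes per kilobase of exon, Me1 made up 79.9% in controls and 81.1% in Dnm2 +/K562E mice, Me2 2.99% ± 0.547 and 7.95% ± 0.574, and Me3 17.1% ± 2.69 and 10.9% ± 0.223. By the longest transcript Me1 made up 60.1% and 64.2%, and Me3 35.8% and 24.2%. Other genes hold 36.9% of the 31-base stretches of Me1, and Gm7049 holds 28.6%, and 569 bases of Me3 exons overlap A230065N10Rik on the opposite strand.

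Pyruvate carboxylase, Pcx, which makes oxaloacetate from pyruvate and is also abundant in fat, was the gene past the adjusted p whose genotypes overlapped. Pcx (chromosome 19, 4510472 to 4621752) stood at 50.47, 57.20, 40.31 and 77.60 in controls 1 to 4 and at 39.57, 41.84, 35.42 and 34.19 in Dnm2 +/K562E mice 1 to 4. Control 3 lay among the mutants. The log2 fold change was -0.58 (SE 0.17, 95% interval -0.94 to -0.21, adjusted p = 0.0155), just outside the fold threshold, and -0.37 (adjusted p = 0.114) under library size alone. The 5 adipocyte markers summed to 183.7, 329.0, 88.13 and 470.5 normalized CPM in controls 1 to 4, the same order of the 4 mice as for Pcx and for Me1, and to 264.5, 240.2, 149.0 and 210.8 in Dnm2 +/K562E mice 1 to 4. This order did not hold in Dnm2 +/K562E mice, where Me1 ran in the opposite order to the sums and Pcx in neither. None of these 5 markers, among them Adipoq, passed an adjusted p of 0.05, and none was at 0. Without control 4, the mouse with the highest sum, the log2 fold change of Pcx was -0.39 (adjusted p = 0.0218). The part of adipocyte RNA in the levels of Pcx and Me1 was not tested.

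**Figure D5:**
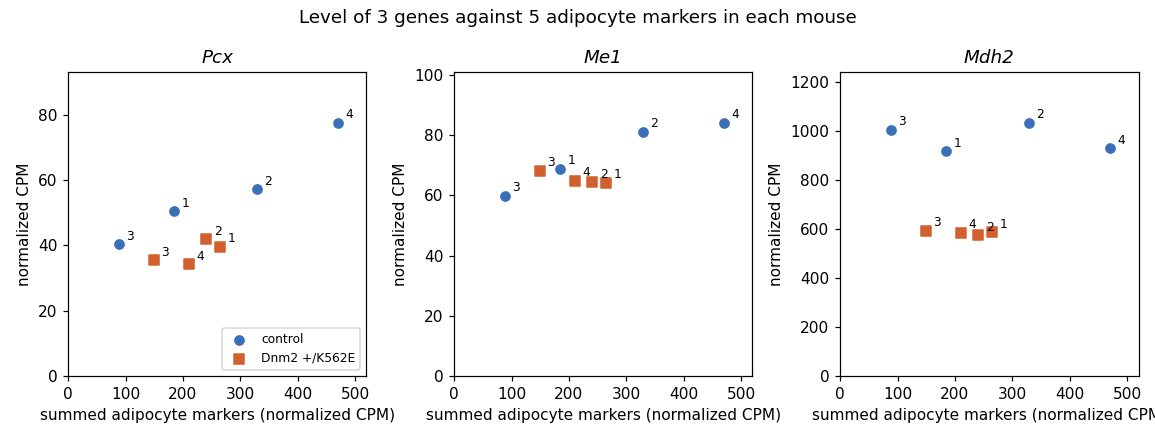
Normalized CPM of Pcx, Me1 and, for comparison, Mdh2 (vertical axes, from 0) against the sum of 5 adipocyte markers (horizontal axis, normalized CPM) in each numbered mouse. Among the 4 controls Pcx runs from 40.31 in control 3, with the lowest sum of 88.13, to 77.60 in control 4, with the highest sum of 470.5, whereas Mdh2 separates the genotypes at every sum.

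Genes next to these 35 in the same pathways, listed by function, were also mostly lower. Of 43 tested, 21 were lower past both thresholds and 1 higher, and 29 were lower and 2 higher at an adjusted p under 0.05. These are 48.8% and 2.33% past both thresholds, against 7.85% and 12.9% of all tested genes, and 67.4% and 4.65% by adjusted p, against 21.7% and 22.2%. Their median on the log2 scale was -0.58. The 4 subunits of succinate dehydrogenase, the cycle enzyme that is also respiratory complex II, fell past both thresholds, with the smallest p-values for Sdha (945.4 ± 49.9 to 477.6 ± 7.60, log2 fold change -0.99, adjusted p = 1.05e-06), Sdhb (-0.92) and Sdhd (-0.77). Of 8 genes for the lipoate and thiamine cofactors of the dehydrogenase complexes, 4 fell by adjusted p alone and 0 passed both thresholds, among them Bola3 (-0.45) and Lias (-0.38).

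Among 5 carriers of cycle intermediates, the muscle aspartate-glutamate carrier Slc25a12 (-0.71) and the oxoglutarate carrier Slc25a11 (-0.69) fell, and Slc25a13, a second aspartate-glutamate carrier at a low level here, rose (2.46 ± 0.495 to 3.811 ± 0.165, log2 fold change 0.64, adjusted p = 0.0132), a call past both thresholds that was lost without control 3. Of 15 genes for other ways in and out of the cycle, 9 fell past both thresholds, with the acetate-activating enzyme Acss1 (-1.58), the ketone body enzyme Oxct1 (-1.40) and the methylmalonyl-CoA epimerase Mcee (-0.96) at the smallest p-values. Of 4 lactate genes 2 fell past both thresholds and 1 by adjusted p alone. The lactate exporter Slc16a3 went from 53.82 ± 11.4 to 9.356 ± 0.924 (-2.52, adjusted p = 8.03e-07) and the oxidative lactate dehydrogenase subunit Ldhb from 1032 ± 100 to 490.5 ± 20.5 (-1.07, adjusted p = 2.65e-06). Of 6 regulators of oxidative genes 4 fell, among them Ppara (-1.98), Esrra (-0.70) and the coactivator Ppargc1a, which stood at 53.21, 117.3, 101.8 and 85.97 in controls 1 to 4 and at 32.83, 25.24, 24.47 and 33.40 in Dnm2 +/K562E mice 1 to 4 (-1.63, SE 0.21, adjusted p = 0.000129; edgeR quasi-likelihood test throughout). Control 1 had the lowest Ppargc1a of the controls, still above every mutant.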

How the data were processed

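The authors trimmed reads with Trimmomatic 0.33, aligned them to GRCm38.p5 with STAR 2.5.1b and counted them per Ensembl gene with featureCounts. The deposited values are raw counts. By the authors' settings, reads of low mapping quality were left out and multi-mapping reads counted at the primary alignment. Reads over several genes were counted for each. Multi-mapping reads of low mapping quality thus fall under the first setting. The strand setting is not given in the sources used here, so overlapping genes on opposite strands may share reads. The labels name a total RNA kit, whereas poly A enrichment is described in the study's methods.

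Genes were filtered with filterByExpr (minimum count 10, minimum total 15), scaled with TMM and tested with the quasi-likelihood F-test of edgeR 4.0.16 (limma 3.58.1, R 4.3.3), with Benjamini-Hochberg adjustment over 14001 genes, in place of the exact test of edgeR that the authors used. A prior count of 2 was used for log2 values. Standard errors (SE) were derived from the F statistics. Ratios of 23 pairs within a mouse were compared by exact two-sided permutation tests (scipy 1.17.1). Of 22880 identifiers, 22570 matched GENCODE M21, which gave positions and exon lengths. Sharing of sequence was counted over stretches of 31 bases. The fit was tested on simulated data. All 8 libraries differed beyond counting noise and were kept.

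The members, lists, pairs and motifs were chosen with earlier results of these data known. All members, Dnm2 and Ppargc1a are named. Otherwise at most 3 genes per other list are named, those of smallest p-value, and at most 2 markers per list. Ppard, a regulator with a smaller p-value than Ppargc1a, also fell past both thresholds (log2 fold change -0.58, adjusted p = 0.000109, edgeR quasi-likelihood test). The third muscle marker was named outside this rule, after its values were seen. Some genes of the other lists are not reported here by name. As alternatives, DESeq2 1.42.0 and the exact test of edgeR replaced the F-test, library size alone or median-ratio factors replaced TMM, mitochondrially encoded genes were removed first, the filter was dropped or raised to at least 10 counts in every mouse, a replicate block was fitted and each mouse was left out. Leaving out controls 1 and 4 together was added after the data were seen.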

Additional observations from a re-analysis of the deposited data

Results flagged for a closer look

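In 6 of 70 groups of 4 mice (35 genes in 2 genotypes), 1 mouse stood apart from the other 3 by Dixon's test at its 95% critical value, which chance passes in about 1 of 20 groups. Of these, 3 were control 1, which was high in Pdp1 (75.73 normalized CPM, others 30.41 to 36.66), Pdp2 (12.04, others 5.599 to 6.385) and Idh1 (71.35, others 27.12 to 32.91). Pdhx was low in Dnm2 +/K562E mouse 2 (65.59, others 74.33 to 75.97), Pdpr was low in Dnm2 +/K562E mouse 1 (80.36, others 91.37 to 93.05), and Me1 was high in Dnm2 +/K562E mouse 3 (68.12, others 64.25 to 64.75). The results on Pdp1, Pdp2 and Idh1 without control 1 stand beside their values in the report.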

How the results depend on the processing

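Of the 630 refits of single members, 615 kept the direction and the side of the adjusted p threshold of 0.05. The fold threshold was not part of this count. With library size alone, members lower past both thresholds numbered 11 in place of 20, their median was -0.45 in place of -0.66, other pathway genes numbered 13 lower and 2 higher past both thresholds (21 and 1) and 4 higher by adjusted p (2), and all genes 564 lower and 2865 higher (1099 and 1806). Total Dnm2 then passed the test at a log2 fold change of 0.36 (adjusted p = 0.00271), and the sign turned for Pdk1 (0.16), Aco1 (0.20) and Me1 (0.04). Aco1, whose change was near 0 (down to -0.05 without Dnm2 +/K562E mouse 2), also turned to 0.01, 0.0 and 0.03 without control 4, Dnm2 +/K562E mouse 3 or 4, and to 0.0 without controls 1 and 4. Without controls 1 and 4, 4 members were higher by either call (Pdk3, Me2, Pdp1 and Idh1), with a median of -0.74. Leaving out 1 mouse at a time gave 19 to 22 members lower and 2 to 3 higher past both thresholds, 2 to 4 higher by adjusted p (4 without control 1) and a median between -0.73 (without control 4) and -0.64. The other pathway genes then numbered 0 to 1 higher past both thresholds (0 without control 3) and 1 to 2 by adjusted p.

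Numbers shared by mice of both genotypes did not pair them: the correlation of deviations between same-numbered mice averaged -0.114 by titles and -0.0302 by descriptions, so the replicate block was not used. With the block by titles 1637 genes were higher and 1036 lower, 1 other pathway gene was higher by adjusted p, and members stayed at 20 lower and 2 higher. With the block by descriptions Pdp1 passed the adjusted p (0.44, adjusted p = 0.0468). The 10 pairs without overlap numbered 10 to 14 when 1 mouse was left out. Genes under 20 normalized CPM (Pdk3, Pdp2, Me2) rest on fewer counts than the other members, from 87 to 508 per library.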
